A study of Mus musculus with 8 samples.

Results

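The genes described here carry out and control the entry of branched-chain amino acids into breakdown: the aminotransferases Bcat2 and Bcat1, the subunits Bckdha, Bckdhb and Dbt of the branched-chain keto acid dehydrogenase (BCKDH), its kinase Bckdk, its phosphatase Ppm1k and the carrier Slc25a44. They were taken by symbol from a table of FPKM, sequenced fragments scaled to transcript length and to the number of mapped fragments. Each of the 8 symbols had a single row among 39009 rows. Messenger RNA had been sequenced from the gastrocnemius, a calf muscle, of 8 mice, all male and of C57BL6 background. The 4 knockout mice (KO) were homozygous for the allele Bcat2tm1.2Clyn and were 10 to 11 weeks old, at 15 to 24 g, while the 4 wild-type mice (WT) were 9 to 10 weeks old, at 22 to 25 g. Both groups chose freely between chow and a purified diet without branched-chain amino acids. The exons that the allele lacks and the cells that lose the enzyme are not given in the labels. The expression columns name the knockouts KO5 to KO8 and match no single labelled knockout, so age and weight were not tied to their values.

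Leucine, isoleucine and valine lose their amino group in mitochondria to 2-oxoglutarate, a reversible step catalysed by BCATm, the product of Bcat2. BCATc, the product of Bcat1, does the same in the cytosol and is known mainly from brain and some growing tissues. The resulting keto acids are decarboxylated irreversibly by BCKDH, a complex of a decarboxylase (Bckdha and Bckdhb), an acyltransferase core (Dbt) and a lipoamide dehydrogenase (Dld) that it shares with sister complexes. Phosphorylation of the Bckdha subunit by Bckdk switches the complex off, and dephosphorylation by Ppm1k switches it on. Skeletal muscle is known for abundant BCATm and comparatively low BCKDH activity, so it releases much of the keto acid it makes.

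The libraries differed in ways that touch these genes. The summed FPKM of 9 skeletal muscle markers ran from 38490 to 49032 in KO and from 39962 to 49757 in WT, with the myosin Myh1 listed at 0 in a single library. The summed FPKM of 7 adipocyte markers was 8266 in KO6 and 1328 to 2030 in the other knockouts, and 15703 in WT1 and 614 to 738 in the other wild-type mice. KO6 also carried a summed 1374 FPKM of 6 skin markers, against at most 8.93 FPKM in any other library. The median deviation of all tested genes from the 8-mouse mean was -0.35 in KO8 on the log2 scale, and between -0.07 and 0.16 in the other 7 mice. Sequencing depth relative to WT2, estimated from low values, ran from 0.547 to 1.21 in KO and from 0.435 to 1.22 in WT. In whole muscle, fewer cells of a type and less RNA per cell cannot be told apart.

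Of the 8 genes, 7 passed the filter of a mean of at least 1 FPKM and were tested among 11118 genes with limma on log2(FPKM + 1), adjusted by Benjamini-Hochberg. Bcat1 did not pass it. A single member, Bcat2, was past the adjusted threshold of 0.05, where 0.027% of all tested genes were and 0.018% were past it and lower. Bcat2 is the gene that the allele targets, so its low level was set by design. The lowest limma adjusted p of the other tested members was 0.48. In 3 of the 7, Bcat2, Bckdha and Bckdk, every KO value lay under every WT value, and these 3 also had an unadjusted limma p under 0.05. Only Bckdha and Bckdk of these are not targeted by the allele. Among all tested genes, 4.68% had every KO value under every WT value, of 6.75% with groups apart in either direction. At an unadjusted p under 0.05, 7.33% were lower and 2.99% higher, 10.3% in all. All 7 had a log2 difference under 0, as did 63.6% of tested genes. Their median difference, with the targeted Bcat2 included, was -0.31, against -0.12 over all tested genes.

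Bcat2, Bckdha and Bckdk lie on mouse chromosome 7, and none of the other members does. Of 837 tested chromosome 7 genes, 8.48% were lower at an unadjusted p under 0.05, against 7.24% of genes on other chromosomes. Every KO value lay under every WT value in 4.42% of chromosome 7 genes, against 4.7% of the others. These shares span the whole chromosome, and a part of position near the targeted locus was not tested. Sequence just before the start of these 3 genes is shown because their groups did not overlap. Each run is the 250 bases before a RefSeq start (GRCm38.p6, the mm10 assembly), on the gene's strand, with each CG pair in capitals. Bcat2 has 2 such starts, and the start nearest to that of the deposited gene was used. Bcat2 is at chr7:45569903-45570152 on the plus strand, Bckdha at chr7:25658762-25659011 on the minus strand, and Bckdk at chr7:127903823-127904072 on the plus strand.
Bcat2: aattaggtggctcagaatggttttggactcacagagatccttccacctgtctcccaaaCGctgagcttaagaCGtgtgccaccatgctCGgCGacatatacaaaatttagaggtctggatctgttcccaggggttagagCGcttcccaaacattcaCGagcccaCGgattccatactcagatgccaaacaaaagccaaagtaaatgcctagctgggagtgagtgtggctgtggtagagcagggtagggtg
Bckdha: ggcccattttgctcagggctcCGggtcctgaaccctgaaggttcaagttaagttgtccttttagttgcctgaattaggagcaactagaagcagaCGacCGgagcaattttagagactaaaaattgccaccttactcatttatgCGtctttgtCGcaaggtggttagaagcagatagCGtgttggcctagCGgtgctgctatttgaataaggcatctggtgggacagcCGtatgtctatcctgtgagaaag
Bckdk: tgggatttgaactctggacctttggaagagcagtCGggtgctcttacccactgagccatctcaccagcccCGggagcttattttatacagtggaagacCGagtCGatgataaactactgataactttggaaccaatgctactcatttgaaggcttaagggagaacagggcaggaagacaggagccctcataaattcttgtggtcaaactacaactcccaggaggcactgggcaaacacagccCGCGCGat

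These windows held 7 CG pairs before Bcat2, 8 before Bckdha and 7 before Bckdk, close to the median of 6 over 32851 mouse promoters of the same length. G and C made up 50.4% of the Bcat2 window, 47.6% of the Bckdha window and 50.0% of the Bckdk window, against a median of 52.4%. RefSeq promoters were found for 6 of the 8 genes. Bckdhb and Bcat1, like Bcat2, had 2 starts each, and the windows of the starts not used were left out of these counts. Bckdhb, Ppm1k and Bcat1, all with values that overlapped between groups, had 15, 14 and 5 CG pairs. Motifs were searched on both strands. The nuclear receptor half-site AAGGTCA is in 4.08% of all promoters, the E-box CACGTG in 6.02%, the KLF box CCACCC in 28.1% and the amino acid response element TGATGNAA in 3.45%. None of these letters occurred in the 3 windows printed above. Among the 6 windows there was a single match, a KLF box on the opposite strand of the Bckdhb window, at bases -188 to -183 from the start.

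The 8 genes stood at widely different levels. In KO, Bckdk led with a mean of 79.7 ± 7.35 FPKM (SD, n = 4), followed by Bckdha at 60.9 ± 2.49 FPKM. Bckdhb, Dbt and Slc25a44 followed at 11.7 ± 5.11, 7.96 ± 3.70 and 6.87 ± 2.00 FPKM, then Bcat2 at 3.29 ± 1.37, Ppm1k at 2.57 ± 0.545 and Bcat1 at 0.134 ± 0.0989 FPKM. In WT, Bckdk again led with 118 ± 22.3 FPKM (SD, n = 4), followed by Bckdha at 80.0 ± 8.13 FPKM and Bcat2 at 53.2 ± 19.9 FPKM. Bcat2 thus held the sixth place in KO and the third in WT, and the other 7 genes kept their order. Bckdhb, Dbt and Slc25a44 stood at 14.1 ± 3.72, 9.16 ± 2.36 and 8.15 ± 1.97 FPKM in WT, Ppm1k at 3.14 ± 0.524 FPKM and Bcat1 at 0.218 ± 0.126 FPKM. The ranges of Bckdk and Bckdha did not overlap in either group. Neighbours from Bckdhb down to Ppm1k overlapped in KO, and in WT Bckdha overlapped Bcat2, Bckdhb overlapped Dbt and Dbt overlapped Slc25a44. Dbt was above Slc25a44 in 3 of 4 KO and 2 of 4 WT mice, so their order was not resolved. Over all 8 mice the mean of Bckdk exceeded that of 93.8% of tested genes and the mean of Ppm1k that of 28.4%.

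**Figure D1:**
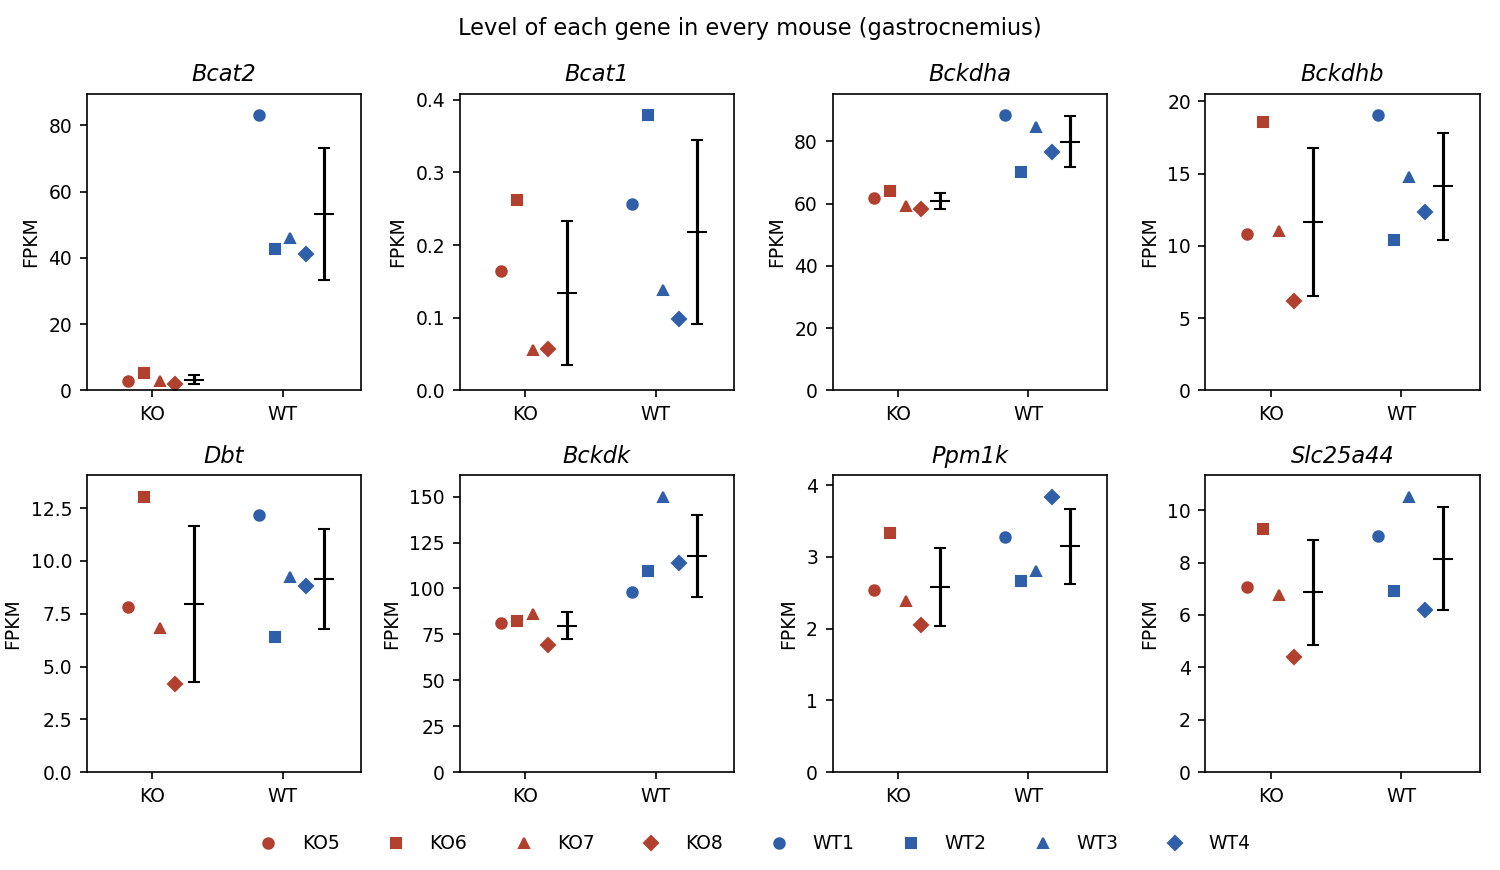
FPKM of the 8 genes in every mouse, KO left of WT, with 1 symbol per mouse and the mean ± SD beside the points (n = 4 each). Bcat2, Bckdha and Bckdk show no overlap between the groups, and KO8 is the lowest or next to lowest mouse for every gene.

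The targeted gene itself, Bcat2 (ENSMUSG00000030826, mm10 chromosome 7, 45570153 to 45589710), was read first. It stood at 2.89, 5.26, 2.91 and 2.09 FPKM in KO5 to KO8, against 83.0, 42.7, 46.0 and 41.2 FPKM in WT1 to WT4. The highest knockout was KO6 and the highest wild type was WT1, the 2 libraries with raised adipocyte markers, and their part in these values was not tested. All 4 knockouts lay far under the lowest wild type. In KO, Bcat2 fell by 3.65 on the log2 scale, with an SE of 0.28 and a 95% interval of -4.30 to -3.00 (limma, adjusted p = 0.00245). A 2-sided exact permutation gave p = 0.0286, the lowest value possible with 4 mice against 4. The KO mean was 6.18% of the WT mean with all mice and 6.07% without KO6 and WT1, at 2.63 ± 0.470 FPKM in KO and 43.3 ± 2.45 FPKM in WT (SD, n = 3 each). An antisense gene model that overlaps the start of Bcat2, 0610005C13Rik, was listed at 0 in all 8 mice.

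Bcat1 (ENSMUSG00000030268, chromosome 6, 144993835 to 145076184), the cytosolic enzyme for the same reaction, was near the bottom of the scale in both groups. It read 0.164, 0.262, 0.0551 and 0.0570 FPKM in KO5 to KO8, against 0.257, 0.378, 0.138 and 0.0987 FPKM in WT1 to WT4. The groups overlapped, and the difference of -0.10 on the log2(FPKM + 1) scale had an exact permutation p of 0.314 (2-sided). With a pseudocount of 0.1 the difference was -0.45. No knockout had more Bcat1 than the highest wild type.

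Bckdha (ENSMUSG00000060376, chromosome 7, 25629852 to 25658761) encodes the decarboxylase subunit on which phosphorylation acts. It read 61.9, 63.9, 59.4 and 58.4 FPKM in KO5 to KO8, against 88.3, 70.2, 84.7 and 76.6 FPKM in WT1 to WT4. The knockouts lay close together and all under the lowest wild type. The difference was -0.38 on the log2 scale (SE 0.12, 95% interval -0.66 to -0.10, exact permutation p = 0.0286), and the limma p of 0.0129 became an adjusted p of 0.48. After median-ratio scaling, which takes up the general offset of KO8, the difference was -0.23, not past an unadjusted limma threshold of 0.05. KO8 then read 78.9 FPKM, inside the wild-type range of 72.1 to 79.9 FPKM. The gene B3gnt8 overlaps Bckdha on the other strand in GENCODE M21 and stood at 0.324 to 1.12 FPKM. In the deposited positions it ends at 25629490, short of Bckdha, and does not overlap it.

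Bckdhb (ENSMUSG00000032263, chromosome 9, 83925150 to 84124239), the partner subunit of the decarboxylase, read 10.8, 18.6, 11.0 and 6.21 FPKM in KO5 to KO8. In WT1 to WT4 it read 19.0, 10.4, 14.7 and 12.3 FPKM. The highest mouse of each group was the library with raised adipocyte markers, and the groups overlapped. The difference of -0.31 (SE 0.30, 95% interval -1.003 to 0.38, limma adjusted p = 0.635) was -0.07 without KO8 and -0.55 without KO6.

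Dbt (ENSMUSG00000000340, chromosome 3, 116513070 to 116549976), the acyltransferase core, read 7.81, 13.01, 6.84 and 4.17 FPKM in KO5 to KO8. In WT1 to WT4 it read 12.2, 6.40, 9.25 and 8.83 FPKM. KO6 and WT1 were again the highest mice of their groups, KO8 was the lowest of all, and the groups overlapped. The difference of -0.24 (SE 0.30, 95% interval -0.93 to 0.45, limma adjusted p = 0.716) was -0.01 without KO8 and -0.49 without KO6. Without both KO6 and WT1, Bckdhb averaged 9.35 ± 2.72 FPKM in KO and 12.5 ± 2.18 FPKM in WT, and Dbt 6.27 ± 1.88 FPKM in KO and 8.16 ± 1.54 FPKM in WT (SD, n = 3 each).

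The lipoamide dehydrogenase Dld (chromosome 12), which serves BCKDH and its sister complexes and is not one of the 8 genes, was the most abundant transcript of the complex. It read 176, 156, 132 and 147 FPKM in KO5 to KO8, against 162, 126, 124 and 146 FPKM in WT1 to WT4. The groups overlapped, with a difference of 0.13 (SE 0.15, 95% interval -0.20 to 0.46, limma adjusted p = 0.681).

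**Figure D2:**
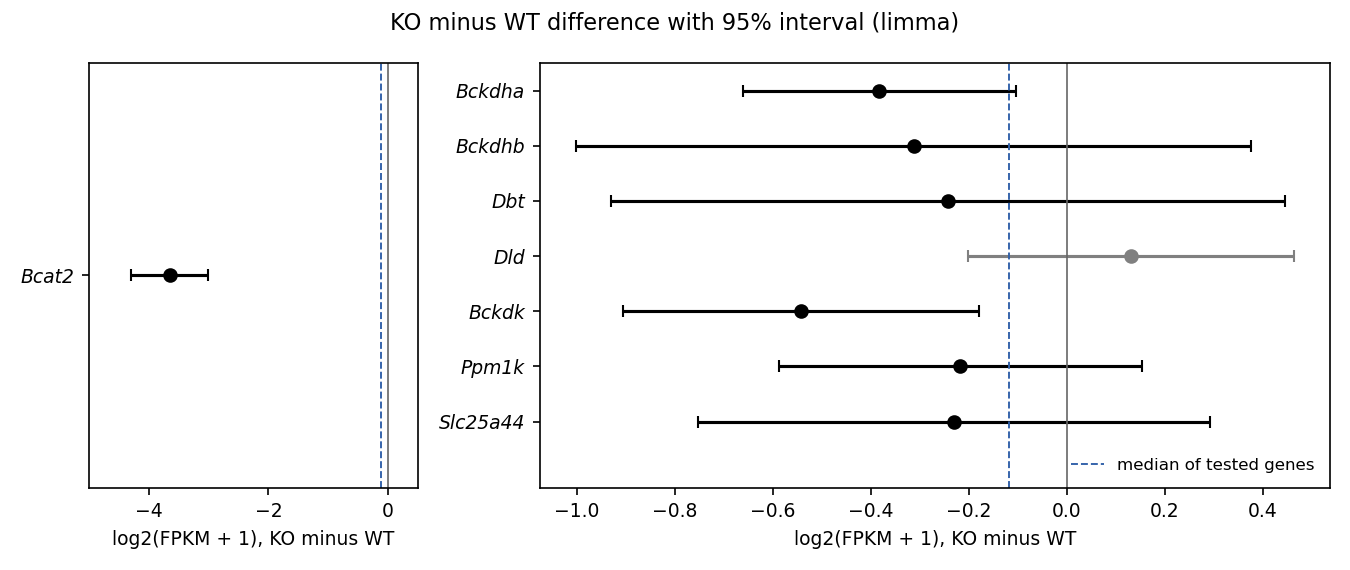
Difference in log2(FPKM + 1), KO minus WT, with its 95% interval from limma (n = 4 each), for the 7 tested members (black) and Dld (grey). Bcat2 stands on its own axis at -3.65, and the dashed line at -0.12 is the median of the tested genes.

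Bckdk (ENSMUSG00000030802, chromosome 7, 127904082 to 127909664), the kinase that inactivates BCKDH, was the highest of the 8 transcripts in both groups. It read 81.2, 82.3, 86.2 and 69.2 FPKM in KO5 to KO8, against 98.0, 109, 150 and 114 FPKM in WT1 to WT4. Every knockout was under every wild type, and the KO mean of 79.7 ± 7.35 FPKM was 67.8% of the WT mean of 118 ± 22.3 FPKM (SD, n = 4 each). The difference was -0.54 on the log2 scale (SE 0.16, 95% interval -0.91 to -0.18, exact permutation p = 0.0286), and the limma p of 0.00835 became an adjusted p of 0.48. By that p, Bckdk was number 148 of the 11118 tested genes.

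Across alternatives the Bckdk difference ran from -0.64 without both KO6 and WT1 to -0.36 with a length and GC trend removed, and its limma adjusted p from 0.378 to 0.873. After median-ratio scaling it was -0.39, still past an unadjusted limma threshold of 0.05, and KO7 and KO8, at 89.9 and 93.4 FPKM, then lay above WT1 at 88.6 FPKM. Of the 8 genes, 1, Bcat2, had groups apart after that scaling.

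Ppm1k (ENSMUSG00000037826, chromosome 6, 57506502 to 57535426), the phosphatase that reactivates BCKDH, was low. It read 2.53, 3.33, 2.39 and 2.04 FPKM in KO5 to KO8, against 3.27, 2.67, 2.81 and 3.83 FPKM in WT1 to WT4. KO6 was inside the wild-type range and the other knockouts were under it. The difference was -0.22 (SE 0.16, 95% interval -0.59 to 0.15, limma adjusted p = 0.592), and it ran from -0.31 to -0.14 when single mice were left out.

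Slc25a44 (ENSMUSG00000050144, chromosome 3, 88410498 to 88425139), a mitochondrial carrier of branched-chain amino acids described in brown fat, read 7.05, 9.27, 6.76 and 4.38 FPKM in KO5 to KO8. In WT1 to WT4 it read 9.02, 6.91, 10.5 and 6.18 FPKM. The groups overlapped, with KO8 lowest and WT3 highest, and the difference was -0.23 (SE 0.23, 95% interval -0.75 to 0.29, limma adjusted p = 0.644). Without KO8 it was -0.06 and without KO6 -0.37.

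The balance between members was read as FPKM ratios within each mouse, which a library-wide offset leaves alone, and is given with no test. The kinase exceeded the phosphatase 32.1, 24.7, 36.1 and 33.9 times in KO5 to KO8, against 30.0, 41.0, 53.3 and 29.7 times in WT1 to WT4. On the log2 scale this ratio averaged 4.97 ± 0.239 in KO and 5.22 ± 0.405 in WT (SD, n = 4 each), and the groups overlapped. WT3 held the highest ratio, and without it the KO minus WT difference was -0.08, against -0.25 with all mice.

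The kinase stood at 1.31, 1.29, 1.45 and 1.18 times its substrate subunit Bckdha in KO5 to KO8, against 1.11, 1.56, 1.77 and 1.48 times in WT1 to WT4, again with overlap. Bckdha exceeded its partner Bckdhb 5.72, 3.45, 5.39 and 9.40 times in KO5 to KO8, against 4.65, 6.76, 5.75 and 6.22 times in WT1 to WT4. The log2 means of that ratio were 2.49 ± 0.592 in KO and 2.53 ± 0.233 in WT, and the wider spread in KO came with KO6 and KO8 at its ends. The log2 ratio of Dbt to Bckdha averaged -3.05 ± 0.619 in KO and -3.16 ± 0.245 in WT, with overlap. In these last 2 ratios the sign of the difference turned when single mice were left out, from -0.29 to 0.19 for Bckdha to Bckdhb and from -0.15 to 0.36 for Dbt to Bckdha.

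A further ratio, chosen after its values were seen, separated the groups. Dld exceeded Bckdha 2.85, 2.45, 2.22 and 2.51 times in KO5 to KO8, against 1.84, 1.79, 1.47 and 1.91 times in WT1 to WT4. Its log2 mean was 1.32 ± 0.148 in KO and 0.80 ± 0.169 in WT (SD, n = 4 each), a difference of 0.52.

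**Figure D3:**
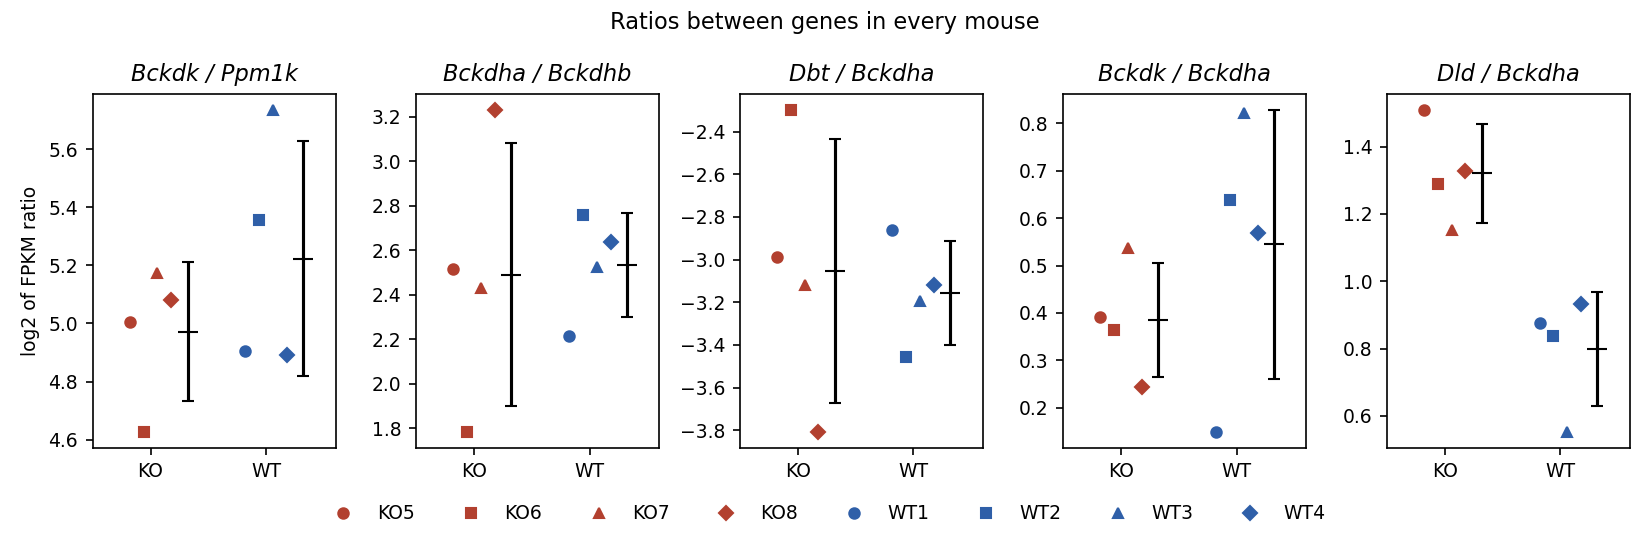
Log2 of the FPKM ratio between pairs of genes in every mouse, KO left of WT, with the mean ± SD beside the points (n = 4 each). The Dld to Bckdha ratio alone shows no overlap between groups, and the other 4 ratios overlap.

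The members fell into unlike patterns over mice. Bckdhb and Dbt had the closest profiles, and Bckdha and Bckdk were farther from either. Likeness was measured as the root mean square difference between 2 profiles of log2(FPKM + 1) over the 8 mice, each centred on its own mean. Among the 21 pairs of tested members it was smallest for Bckdhb and Dbt at 0.0817 and next for Bckdha and Ppm1k at 0.181. It was 0.354 for Bckdha and Bckdhb and 0.446 for Bckdk and Dbt. Pairs with Bcat2 ran from 1.62 to 1.75.

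Against 5626 other genes with a mean of at least 5 FPKM, Dbt was the nearest gene to Bckdhb, and Bckdhb the nearest to Dbt, where the median difference over all candidates was 0.414 to Bckdhb and 0.407 to Dbt. The difference between Bckdhb and Dbt stayed between 0.0750 and 0.0872 under every alternative run. The rank did not. Without both KO6 and WT1, Dbt was number 72 for Bckdhb and Bckdhb number 27 for Dbt, and without KO8 they were number 9 and number 5. The median over all candidates to Bckdhb also fell, to 0.295 without both KO6 and WT1 and to 0.362 without KO8. The deviations of Bckdhb and Dbt from their 8-mouse means were 0.56 and 0.61 in KO6, -0.88 and -0.82 in KO8, and 0.59 and 0.52 in WT1. Those are the libraries with raised adipocyte markers and with the low gene median, and their part in the likeness was not tested.

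The gene next nearest to Bckdhb was Ganab (0.0832), and to Dbt Ifitm2 (0.0885). Bckdk was nearest to Gtpbp2 (0.0539), Bckdha to Metap1d (0.0472) and Gypc (0.0710), and Slc25a44 to Gars (0.0566) and Blmh (0.0609). The nearest to Bcat2, Tceal5 (1.29) and Cbx3 (1.31), were far off in comparison, with a median of 1.82 over all candidates.

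**Figure D4:**
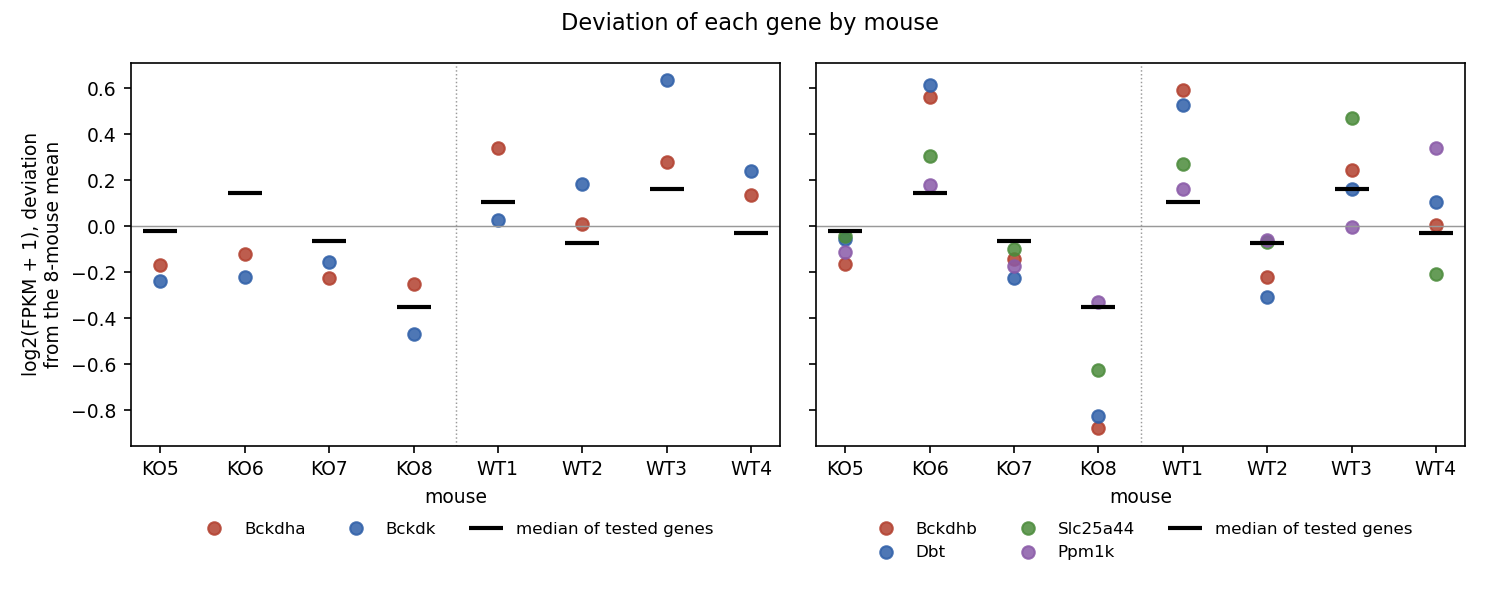
Deviation of log2(FPKM + 1) from the 8-mouse mean for Bckdha and Bckdk (left) and for Bckdhb, Dbt, Slc25a44 and Ppm1k (right) by mouse, KO5 to KO8 then WT1 to WT4, with black bars for the median of the tested genes. Bckdhb and Dbt are high in KO6 and WT1 and low in KO8, while Bckdha and Bckdk are under 0 in all knockouts and above 0 in all wild-type mice.

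The authors' deposited table flags Bcat2, Bckdha and Bckdk at both of its p thresholds, 0.05 and 0.001, and the other 5 members at neither. In the authors' deposited table, 20.2% of the tested genes carry the 0.05 flag and 10.8% the 0.001 flag. The labels do not name the test behind the flags.

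Around these members, 7 lists of related genes were read, in all 53 tested genes of 54 listed. The lists were chosen with earlier results of these data known, so their shares are a description and no test of an excess. None of the 53 genes passed over all genes (lowest limma adjusted p = 0.48). At an unadjusted limma p under 0.05, 11 were lower in KO and 0 higher, or 20.8% lower against 7.33% of tested genes. Of all tested genes, 2.99% were higher. After median-ratio scaling 9 of the 53 were lower, where 5.17% of tested genes were, and 1 was higher (Slc43a1). The share of all tested genes that were higher after scaling was not counted.

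The sister complexes gave 4 of the 11. They use the same chemistry and the same Dld subunit to oxidise pyruvate and 2-oxoglutarate. Dlat, the acyltransferase of the pyruvate complex, averaged 56.0 ± 11.5 FPKM in KO and 95.03 ± 15.7 FPKM in WT (SD, n = 4 each), with a difference of -0.76. Dlst, that of the 2-oxoglutarate complex, averaged 58.3 ± 7.49 FPKM in KO and 84.8 ± 16.4 FPKM in WT, with a difference of -0.52. For both the groups did not overlap, and both kept an unadjusted limma p under 0.05 after scaling, at 0.00742 and 0.0163.

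The other 2 of these 4, named after their values were seen, were Ogdh and Pdhx, with means of 81.0 and 27.3 FPKM in KO and 131 and 34.3 FPKM in WT. After scaling Ogdh kept a limma p under 0.05 before adjustment, at 0.0206, and Pdhx did not, at 0.25 with a difference of -0.17, which left 3 of the 7. The list median was -0.35 over 7 genes, against -0.12 over all genes, and after scaling -0.20 against -0.00. Pyruvate dehydrogenase kinases and phosphatases, relatives of Bckdk and Ppm1k in function, had 0 of 7 at an unadjusted limma p under 0.05 and a median of -0.17, which was -0.04 without KO8 and -0.31 without KO6. The kinase Pdk2 averaged 99.7 ± 18.7 FPKM in KO and 141 ± 36.9 FPKM in WT. The phosphatase regulator Pdpr averaged 7.19 ± 4.09 FPKM in KO and 12.9 ± 5.30 FPKM in WT.

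The acyl-CoA steps that follow BCKDH had a median of -0.23 over 15 genes, with 2 lower at an unadjusted limma p under 0.05. The median was -0.08 after scaling, -0.13 without KO8 and -0.11 without WT1. Ivd, which oxidises isovaleryl-CoA from leucine, read 25.8, 36.1, 33.1 and 21.5 FPKM in KO5 to KO8, against 54.3, 38.3, 58.4 and 47.3 FPKM in WT1 to WT4. Its groups did not overlap, and the difference was -0.76 (SE 0.20, limma adjusted p = 0.48). Hadha, of the trifunctional protein of fatty acid oxidation, averaged 62.2 ± 10.8 FPKM in KO and 97.6 ± 20.6 FPKM in WT, with overlap. Over the 6 genes from propionyl-CoA to succinyl-CoA the median was -0.35, and 1 was lower, Mmab, an enzyme of the cobalamin cofactor, at 5.60 ± 1.19 FPKM in KO and 8.89 ± 1.63 FPKM in WT. Mmaa, a chaperone of the same cofactor, averaged 3.92 ± 0.513 FPKM in KO and 5.06 ± 0.629 FPKM in WT. After median-ratio scaling 2 of these 6 genes were lower at an unadjusted limma p under 0.05, Mmab (0.0110) and Mut (0.0322). Mut, named after its values were seen, then had a difference of -0.34, and the list median was -0.22.

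Enzymes that trade amino groups with BCATm had a median of -0.20 over 7 genes, with 1 lower. That was Got2, the mitochondrial aspartate aminotransferase, at 68.6 ± 13.1 FPKM in KO and 96.1 ± 21.3 FPKM in WT. After median-ratio scaling Got2 was no longer past that threshold (difference -0.33, limma p of 0.0813 before adjustment), which left 0 of the 7, and the list median was -0.05. Its cytosolic counterpart Got1 averaged 81.5 ± 18.7 FPKM in KO and 114 ± 33.1 FPKM in WT. Of 6 listed carriers of neutral amino acids at the plasma membrane, Slc7a5 had no row under that symbol. The other 5 had a median of -0.27, which was -0.14 after scaling, -0.04 without KO8 and -0.41 without KO6. The 1 lower gene was Slc7a8, which averaged 1.26 ± 0.426 FPKM in KO and 2.44 ± 0.852 FPKM in WT, without overlap. Slc43a1 was on the other side, at 13.3, 13.2, 7.03 and 6.30 FPKM in KO5 to KO8, against 6.08, 6.01, 7.06 and 5.41 FPKM in WT1 to WT4 (difference 0.55, limma adjusted p = 0.484). KO5 and KO6 lay above the wild-type range, and KO7 and KO8 within it. After median-ratio scaling the Slc43a1 difference was 0.68, with a limma p of 0.00417 before adjustment and 0.411 after it.

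Among 6 transcription regulators tied to these pathways, 2 were lower at an unadjusted limma p under 0.05, with a list median of -0.32. Mlxipl, the carbohydrate-response factor ChREBP, averaged 10.5 ± 2.30 FPKM in KO and 16.8 ± 3.99 FPKM in WT, without overlap. Ppargc1a, the coactivator PGC-1α of mitochondrial genes, averaged 2.83 ± 0.269 FPKM in KO and 3.89 ± 0.713 FPKM in WT. Its groups were barely apart, with KO8 at 2.995 FPKM and WT1 at 2.998 FPKM, and its scaled unadjusted limma p was 0.236. Klf15, a regulator of branched-chain amino acid genes named here after its values were seen, averaged 12.6 ± 3.15 FPKM in KO and 12.0 ± 1.18 FPKM in WT.

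Markers of other cells were set beside these values. Summed FPKM of 7 macrophage markers ran from 153 to 377 in KO and from 125 to 254 in WT, highest in KO6 and WT1. For 6 Schwann cell markers the sum ran from 47.7 to 117 in KO and from 35.3 to 66.1 in WT, with Cnp listed at 0 in at least 1 library. For 6 endothelial markers it ran from 27.8 to 51.5 in KO and from 45.7 to 76.5 in WT, lowest in KO8. For 6 fibroblast markers it ran from 369 to 558 in KO and from 420 to 703 in WT. At an unadjusted limma p under 0.05 in either direction, where 10.3% of all tested genes lay, were 3 of 6 endothelial, 2 of 6 fibroblast, 1 of 5 tested Schwann cell, 1 of 9 muscle and 0 of 7 macrophage markers. So were 0 of 7 adipocyte and 0 of 6 skin markers. The part of these cells in the differences of the members was not tested. With KO6 and WT1 left out, Bckdk averaged 78.9 ± 8.74 FPKM in KO and 124 ± 22.2 FPKM in WT, and Bckdha 59.9 ± 1.79 FPKM in KO and 77.2 ± 7.24 FPKM in WT (SD, n = 3 each), both without overlap.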

How the data were processed

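Per the labels' protocols, the authors aligned reads of 50 cycles to mm10 with TopHat 2.0.9 and made FPKM values with Cufflinks 2.0.2. A different Cufflinks release, 2.2.1, stands in the submitters' processing notes. The TruSeq RNA v2 kit does not mark strand, so reads from a gene and an antisense partner cannot be told apart. No label states the annotation used for counting. The authors' deposited table also holds group means, standard errors and flags of 0 or 1. The deposited FPKM carry no read totals, so no counting interval is given, and the only error is that among the 4 mice of a group. Relative depth was the mode (kernel SD 0.05) of FPKM ratios to WT2 over genes under 0.3 FPKM.

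Positions are the deposited start plus 1. A symbol with several rows kept its most abundant one. Genes averaging at least 1 FPKM were tested with limma-trend on log2(FPKM + 1), 2-sided, genotype as the only term, Benjamini-Hochberg over 11118 genes. This scale understates changes of low genes. Exact permutation tests used all 70 labelled splits. The members and gene lists were chosen with earlier results of these data known. From each list, the 2 genes of smallest p were named, and the 2 genes nearest to a member by profile excluded Riken and Gm-numbered names. For Bckdk, 1 of these is not reported here. Promoters were RefSeq windows, and transcript length and GC came from GENCODE M21. The fits were first checked on simulated FPKM with known changes. Alternatives are listed with their effects in the closing section. Fits ran in limma 3.58.1 (R 4.3.3), and tables were handled with pandas 2.3.3 (Python 3.11.15).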

Additional observations from a re-analysis of the deposited data

Results flagged for a closer look

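In groups of 4 mice, a value was picked out when its gap to the nearest mouse, as a share of the group's range, passed Dixon's 95% critical value. Over 56 groups of members, ratios, Dld and the 2 genes of smallest p in each list, 5 were picked out. Chance picks out about 1 in 20 groups. Genes named after their values were seen (Ogdh, Pdhx, Mut and Klf15) were not examined, though 2 of them had a mouse set apart. Ogdh stood at 54.4 FPKM in KO8, against 87.7 to 93.5 FPKM in the other knockouts. Mut stood at 13.9 FPKM in WT2, against 21.1 to 22.0 FPKM in the other wild-type mice. Bcat2 in WT1 stood at 83.0 FPKM, against 41.2 to 46.0 FPKM in the other wild-type mice, and WT1 also held the highest adipocyte marker sum. Pdk2 at 71.6 FPKM and Mlxipl at 7.08 FPKM were lowest in KO8, where the median of all tested genes was also lowest. Slc7a8 was highest in WT3, at 3.71 FPKM, and Ppargc1a was lowest among knockouts in KO6, at 2.43 FPKM.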

How the results depend on the processing

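Alternatives were a pseudocount of 0.1 or 0.5, a filter at a mean of 5 FPKM or none at all, median-ratio and quantile scaling, summed rows, robust eBayes, FPKM of 0 as missing, each mouse left out, KO6 and WT1 left out together and, chosen after seeing the data, a loess trend (span 0.5) on transcript length and GC percent removed. Bcat2 stayed past the threshold in all 19 alternatives (limma adjusted p from 0.00017 to 0.0219), and no other tested member passed in any of them. No tested member changed the sign of its difference. Median-ratio scaling moved the median of all tested genes to -0.00, against -0.12. The Bcat1 difference was -0.45 with a pseudocount of 0.1, and the median of the regulator list -0.50. List medians moved by over 1.5 times in other settings too. After median-ratio scaling they were -0.20 for sister complexes, -0.08 for acyl-CoA steps, -0.22 for propionyl-CoA steps, -0.05 for nitrogen partners and -0.14 for carriers. With the length and GC trend removed they were -0.13 for acyl-CoA steps, -0.05 for nitrogen partners, -0.12 for carriers and -0.21 for regulators, and with quantile scaling -0.16 for carriers. The median of pyruvate dehydrogenase kinases and phosphatases was -0.31 and -0.29 with pseudocounts of 0.1 and 0.5. It was -0.28 with the filter at 5 FPKM and -0.31 without KO6 and WT1. With single mice left out, the nitrogen partners were at -0.32 without KO5, -0.39 without KO6, -0.13 without KO8 and -0.31 without WT4, and the carriers at -0.17 without WT1 and -0.16 without WT3. No list median changed sign. The count of genes past the threshold, 3, was 1 with FPKM of 0 as missing, 10 without KO6 and WT1, and 3 to 8 when single mice were left out (8 without KO7, WT1 or WT2, 5 without KO6 or WT4). The cause was not tested. The likeness of Bckdhb and Dbt, given above, lost its first rank under 6 of its 10 alternatives. No paired analysis was possible by number, because the expression columns number the knockouts 5 to 8, and the labels number them 1 to 4. The labels also state no pairing of KO with WT mice, so shared numbers would not by themselves have marked pairs. Precision is limited by 4 mice per group and, for Bcat1, by low values of unknown read depth.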
